A study of Mus musculus with 20 samples.

Results

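Laminins and the integrins that bind them were followed as 9 genes in mouse breast tumors: the laminin chain genes Lama3, Lama5, Lamb3 and Lamc1, and the integrin subunit genes Itga2, Itga3, Itga6, Itgb1 and Itgb4. The members were named by symbol, and each matched 1 of the 43346 genes whose reads were counted. The study asked how expression of parental alleles varies between clonal tumors, and RNA came from small frozen pieces of breast tumor from 20 independent female [BALB/c-neuT x FVB/J] F1 mice of up to 20 weeks of age. All animals carried neuT, an activated rat Her2/neu oncogene, so that every tumor was oncogene driven and there was no normal gland, no tumor without the transgene and no treatment among the samples. Tumor names carry Lo (9 tumors) or Hi (11 tumors), a label whose meaning the sources used here do not give.

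A laminin, a protein of 1 α, 1 β and 1 γ chain, is part of the basement membrane beneath epithelial cells. Integrins α3β1 and α6β1 bind it and connect to actin, whereas α6β4 binds it and connects through plectin to keratin filaments in hemidesmosomes, and α2β1 is mainly a collagen receptor that also binds laminin. In the mammary gland these contacts anchor the basal cell layer, polarize the luminal cells and separate the epithelium from the stroma, and tumor cells meet the same proteins when they invade.

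Tumors had from 38765682 to 65465755 counts, of which 6.29% to 27.7% fell on the ribosomal RNA locus, and no 2 libraries agreed within sampling noise. The labelled tissue held high levels of epithelial markers, with the 10 listed genes summing to between 2911 and 4514 CPM (counts relative to the TMM-scaled library size). The 6 basal epithelial markers summed to between 8.33 and 73.3 CPM. Of these, the defining basal keratin Krt5 had no count in 2 tumors and Krt15 none in 3, while Krt14, Krt17, Trp63 and Oxtr were counted in every tumor. Tumor Lo_8 stood apart in several of the values below. It had the steepest rise of counts with the GC content of genes (a GC slope of 0.19 in log2 per 10 percentage points of GC, against a range that began at -0.15), the lowest Chr1 dosage and an elevated Chr2 dosage, and values that moved most without it are given both ways.

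Levels were first compared between genes per length, as RPKM (reads per kilobase of listed gene length, scaled to the total count of the tumor). Itgb1, the β subunit that pairs with many α subunits, was by far the highest member at 171.8 ± 17.4 RPKM (SD, n = 20), followed by Itgb4, the β subunit of hemidesmosomes, at 35.8 ± 8.18 RPKM. Itga6, the α subunit shared by α6β1 and α6β4, lay at 27.5 ± 2.96 RPKM, and Lama5, the α chain of laminins α5β1γ1 and α5β2γ1, at 25.3 ± 10.5 RPKM. These 4 genes therefore carried most of the RNA of the group. Itga3, the α subunit of α3β1, was at 16.9 ± 3.24 RPKM, and Lamc1, the γ chain of most laminins, at 16.6 ± 2.62 RPKM. The remaining members were lower, with Lamb3, a laminin β chain of epithelia, at 3.77 ± 2.05 RPKM, Itga2, the α subunit of α2β1, at 1.13 ± 0.166 RPKM, and Lama3, a laminin α chain of epithelia, at 0.124 ± 0.0315 RPKM.

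**Figure D1:**
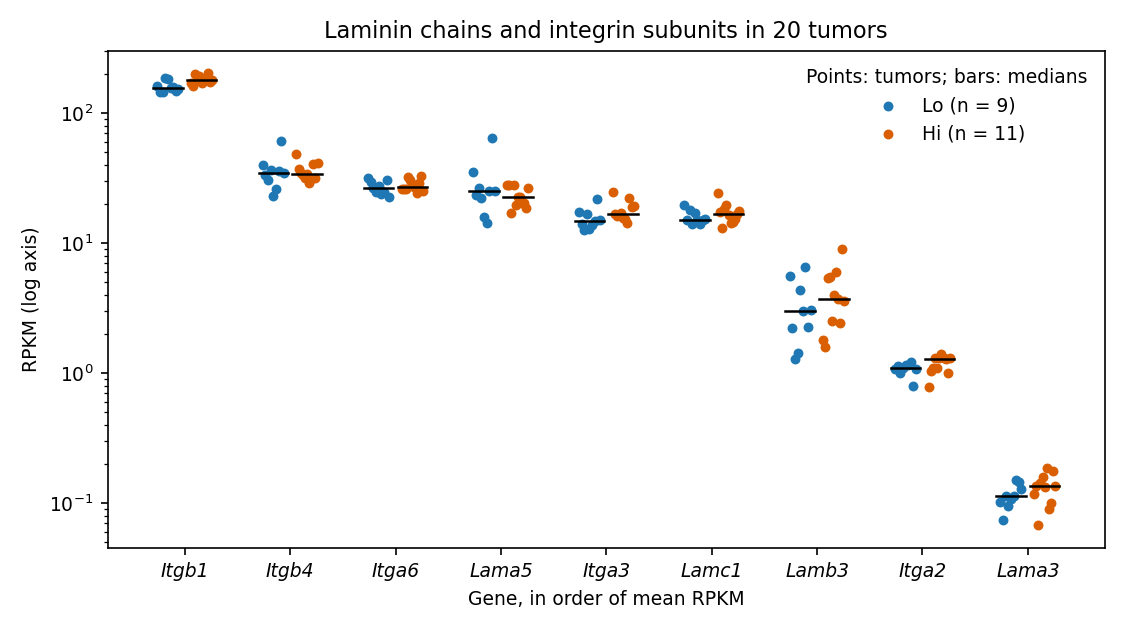
RPKM of the 9 genes (log axis, genes in order of their mean level) in 9 Lo tumors (blue) and 11 Hi tumors (orange), with bars at the group medians. Itgb1 lies above all other members in every tumor, Lamb3 is the most spread member, and 1 Lo tumor (Lo_8) has the highest Lama5 value, 64.7 RPKM.

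The order of levels held beyond the spread of the paired differences for 6 of the 8 neighboring steps. Itga6 exceeded Lama5 by 0.20 ± 0.446 on the log2 RPKM scale and was the higher in 13 of 20 tumors, and Itga3 differed from Lamc1 by 0.01 ± 0.265 and was the higher in 9 of 20 tumors, so that neither step was larger than its spread. Itgb1 was above Itgb4 in all 20 tumors, by 2.29 ± 0.357. Lama3 was counted with only 39 to 101 reads per tumor, and its counting error alone amounts to an SD of 0.18 in log2 against 0.35 observed. For Itga2 (159 to 363 reads) the corresponding values were 0.09 and 0.25, and for Lama5 (7895 to 35082 reads) they were 0.01 and 0.41.

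The members were then set within their families as shares of RNA, which are no measure of protein. Lama5 made up 64.3 ± 5.84% of the RPKM of the 5 α chain genes (from 55.8% to 82.4%, SD, n = 20), and Lama4, the α chain of vessel laminins, made up 32.3 ± 5.19%. Lama3 contributed 0.338 ± 0.107%. Lamb3 contributed 8.24 ± 4.30% of the β chains, near the 9.44 ± 2.55% of Lamb1 and far under the 82.3 ± 4.98% of Lamb2, but its share ranged from 3.01% to 19.5% between tumors. Lamb3 and Lama3 were not matched in RNA per length, and Lamb3 exceeded Lama3 by a ratio of 31.4 ± 17.3 (from 11.3 in Lo_2 to 80.2 in Hi_11).

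On the receptor side, shares were taken over 4 laminin-binding α subunit genes, Itga2, Itga3, Itga6 and Itga7. Itga6 made up 59.9 ± 4.04% and Itga3 36.4 ± 4.18% of their RPKM, and Itga2 added 2.50 ± 0.480%. Itga1, at a mean of 4.04 RPKM, was not in this sum, and the shares would be lower with it. Itgb1 made up 82.7 ± 3.76% of the 2 β subunits and Itgb4 the other 17.3 ± 3.76%. The ratio of Itgb1 to Itgb4 was 5.01 ± 1.16, with the lowest value in Lo_8 (2.45) and the highest in Lo_4 (7.90). The ratio of Itga6 to Itgb4, partners in α6β4, was 0.799 ± 0.173 and ran from 0.505 in Lo_8 to 1.19 in Lo_4. In most tumors there was therefore less Itga6 RNA than Itgb4 RNA per length, although Itga6 also pairs with the far more abundant Itgb1.

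**Figure D2:**
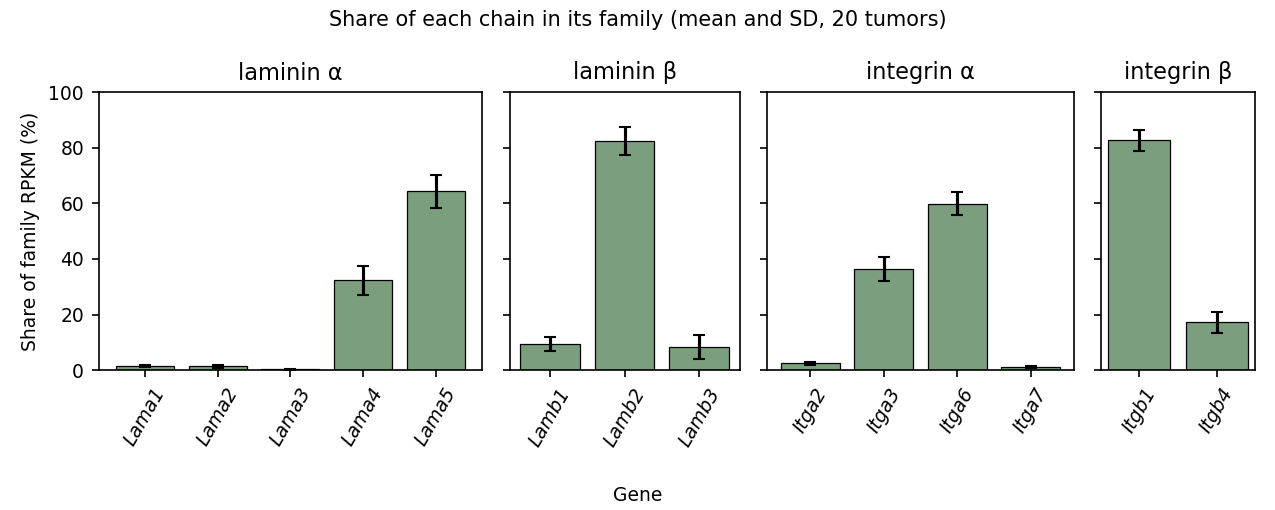
Share of the summed RPKM of its family held by each chain (percent; bars are means and whiskers the SD over 20 tumors). Lama5, Lamb2, Itga6 and Itgb1 hold the greatest share of their families, with 64.3%, 82.3%, 59.9% and 82.7%. The integrin α family shown is Itga2, Itga3, Itga6 and Itga7, without Itga1.

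The members differed in how much they varied between tumors. Lamb3 had an SD of 0.77 in log2 CPM, at percentile 93.7 of the 18883 genes tested, whose median SD was 0.25. In CPM, Lamb3 ran from 9.34 in Lo_2 through a median of 22.8 to 60.6 in Hi_8, a range of 6.49-fold. The next tumor was Lo_7 at 41.8 CPM, and the labels overlapped, from 9.34 to 41.8 CPM in Lo tumors and from 10.2 to 60.6 CPM in Hi tumors. Lama5 had an SD of 0.41 (percentile 71.8) and ran from 194.4 CPM in Lo_6 through a median of 276.9 to 682.8 in Lo_8. The Lama5 value of Lo_8 stood alone, since the next tumor, Lo_1, had 350.1 CPM, and without Lo_8 the SD was 0.27. Itgb4 ran from 179.7 CPM in Lo_4 through 246.3 to 395.1 in Lo_8, with Hi_1 next at 327.8, and its SD was 0.25 with Lo_8 and 0.20 without it.

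The other members were steadier. Itgb1 ran from 562.3 CPM in Lo_8 through 697.5 to 826.2 in Lo_4, and with an SD of 0.16 it was at percentile 21.7 of all genes tested. Itga6 was the least variable member (SD 0.14, percentile 14.01), from 211.6 CPM in Lo_9 to 299.3 in Hi_8. Neither gene had a tumor that stood far from the rest. Itga3 ran from 80.4 CPM in Lo_2 to 136.1 in Hi_1 (SD 0.21), and Lamc1 from 110.3 in Hi_11 to 192.2 in Hi_1 (SD 0.20), so that Hi_1 was the highest tumor for both. Itga2 (SD 0.25) lay between 3.09 and 5.79 CPM with Lo_8 at the bottom, and Lama3 (SD 0.35) between 0.736 and 1.94 CPM.

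No member was called between Lo and Hi tumors at an adjusted p of 0.05 (quasi-likelihood test of edgeR, adjusted over all genes after Benjamini and Hochberg). No other gene was called either (0% of 18883 genes tested, with 1045 genes at an unadjusted p under 0.05; DESeq2 called 1 gene, which was no member), nor was any of the 30 tested genes of the wider pathway. Lama5 had a log2 fold change of 0.35 for Lo over Hi (SE 0.169, adjusted p = 0.895), which fell to 0.13 without Lo_8 (SE 0.114), below the size of the differences of Lamb3 (-0.21) and Itga3 (-0.18) in the same fit. Its Lo tumors had a median of 289.1 CPM and its Hi tumors one of 249.98 CPM, and the groups overlapped. An exact permutation test of mean log2 CPM (a Lo minus Hi difference of 0.27, two-sided, 9 against 11 tumors) gave p = 0.142. Itgb1 had the reverse order of medians, 647.3 CPM in Lo and 719.4 CPM in Hi, with a log2 fold change of -0.08 (SE 0.0764, adjusted p = 0.9997). Lamb3 differed by -0.27 (SE 0.312, adjusted p = 0.9997).

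The main question that the 20 tumors allow is which members varied together. A pair was called when each gene passed an adjusted p of 0.05 in the edgeR fit on the z-scored log2 CPM of the other, with adjustment over all genes. Of 36 pairs, 2 were called, both with Lama5: Itgb1 fell as Lama5 rose, and Itgb4 rose with it. As background, 7.91% of all genes were called with Lama5 in either direction, 6.6% with Itgb1 and 4.59% with Itgb4, against 2.09% with Lamb3, 0.185% with Itga3, 0.0953% with Itga2, 0.0477% with Itga6, 0.0053% with Lamc1 and 0% with Lama3.

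The opposite course of Lama5 and Itgb1 was the closest relation within the group. Per SD of Lama5, Itgb1 fell by 0.13 on the log2 scale (SE 0.0274, adjusted p = 0.00651), and per SD of Itgb1, Lama5 fell by 0.34 (SE 0.0509, adjusted p = 0.00117). Pearson's r was -0.820 and Spearman's rho -0.862 over 20 tumors, each with a permutation p of 1e-05, the smallest that 100000 permutations can give. The relation was present within both labels, with r = -0.779 in 9 Lo and -0.902 in 11 Hi tumors, and without Lo_8 (r = -0.828, larger adjusted p = 0.0229). When Lo_8 and Lo_6, which lay farthest from the Lama5 median, were left out, r was -0.832, while in the fits that left out the 2 farthest tumors of each covariate the larger adjusted p was 0.0880. The promoter windows of both genes, the 250 bases before the RefSeq start in GRCm38.p6, are shown because the genes form this pair and lie on different chromosomes. Lama5 is on the minus strand at chr2:180225860-180226109 and Itgb1 on the plus strand at chr8:128685404-128685653, and capitals mark the GC box GGGCGG or its complement CCGCCC.
Lama5: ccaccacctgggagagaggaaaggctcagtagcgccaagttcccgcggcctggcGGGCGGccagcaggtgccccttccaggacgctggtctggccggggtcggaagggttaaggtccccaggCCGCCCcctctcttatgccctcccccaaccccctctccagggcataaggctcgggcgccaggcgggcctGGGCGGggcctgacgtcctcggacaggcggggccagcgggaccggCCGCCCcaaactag
Itgb1: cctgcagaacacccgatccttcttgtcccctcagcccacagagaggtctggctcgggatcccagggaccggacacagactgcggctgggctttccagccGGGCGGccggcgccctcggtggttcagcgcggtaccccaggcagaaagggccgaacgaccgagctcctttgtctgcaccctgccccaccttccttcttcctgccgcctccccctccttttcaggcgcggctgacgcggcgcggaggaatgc
Both windows are rich in GC (72.4% for Lama5 and 68.0% for Itgb1). The Lama5 window holds 4 GC boxes on either strand and the Itgb1 window 1, and 32.7% of 32851 promoter windows of this length hold at least 1. Neither holds the CCAAT motif on either strand, found in 33.8% of windows. TATAAA is also in neither and in 12.4% of windows, as is the AP-1 motif TGACTCA, in 4.5%.

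The positive pair was Lama5 with Itgb4, and its call was lost without Lo_8. Per SD of Lama5, Itgb4 rose by 0.18 (SE 0.0377, adjusted p = 0.00636), with r = 0.734 (permutation p = 0.00087) and rho = 0.549 (permutation p = 0.0137). Lo_8 had the highest value of both genes. Without it r was 0.489 and the larger adjusted p was 0.262, and without Lo_8 and Lo_6, the 2 farthest tumors, r was 0.469. Within labels r was 0.896 in Lo and 0.403 in Hi.

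Base composition moved with these relations. The 3 members of highest transcript GC, Itgb4 (60%), Lama5 (59.9%) and Itga3 (57.9%), correlated positively with the GC slope of the libraries (r = 0.615, 0.641 and 0.381), and the lowest in GC, Itga2 (43.7%) and Itgb1 (44.9%), negatively (r = -0.563 and -0.727). Without Lo_8 these values were 0.444, 0.465 and 0.262, and -0.393 and -0.648. Over all 20 tumors the permutation p was 0.00356 for Itgb4, 0.00215 for Lama5, 0.101 for Itga3, 0.00933 for Itga2 and 0.00047 for Itgb1. For the members between them in GC, r was -0.037 (Lamb3, 55.6%), -0.167 (Lamc1, 53.0%), 0.099 (Lama3, 51.7%) and -0.216 (Itga6, 48.9%). The GC content of Itga2 is uncertain, as it came from a transcript of 7108 bases while the listed length was 4214 bases. With the GC slope as a term in the fit, no pair was called: the larger adjusted p was 0.118 for Lama5 and Itgb1 and 0.123 for Lama5 and Itgb4, and the partial correlations given the slope were -0.671 and 0.561. On log2(RPKM + 1) with unscaled totals, Lama5 and Itgb1 were not called (larger adjusted p = 0.286). Itga3 and Itgb4 (r = 0.697, rho = 0.645) passed in 1 direction only (adjusted p = 0.0182 and 0.0675), and within labels r was 0.799 in Lo and 0.80 in Hi. This pair was called with Lo or Hi as a term (larger adjusted p = 0.0312) and on log2(RPKM + 1) (0.0123). Itga2 ran against Itgb4 (r = -0.677), Lama5 (r = -0.632) and Itga3 (r = -0.565), but none of these pairs was called, and without Lo_8 the values were -0.497, -0.374 and -0.484.

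**Figure D3:**
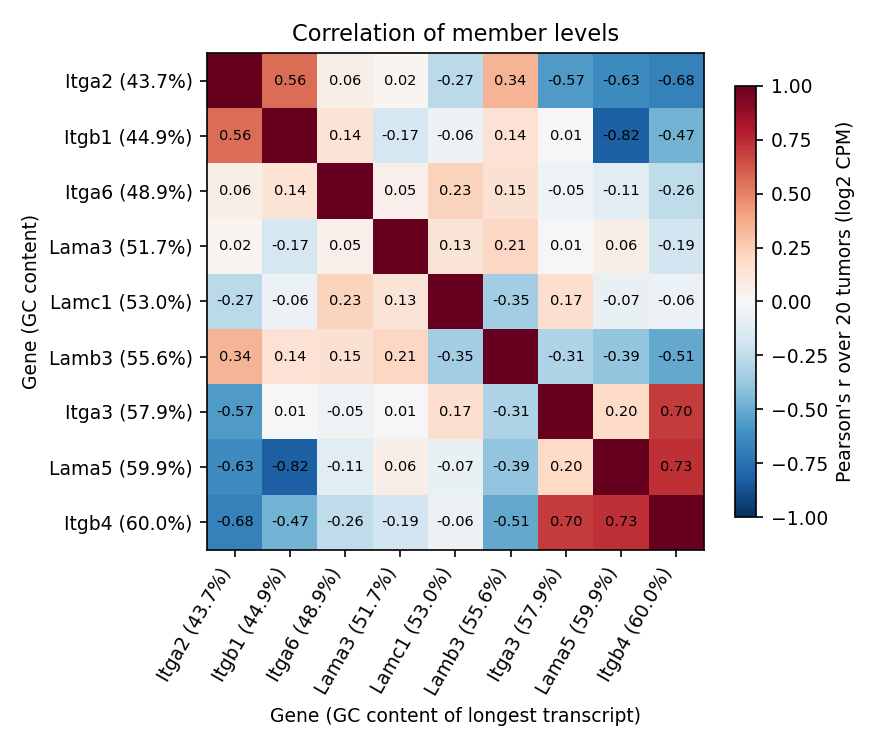
Pearson's r between the log2 CPM of the members over 20 tumors, with genes ordered by the GC content of their longest transcript. The highest positive values join Itgb4 with Lama5 and with Itga3 (57.9% to 60% GC), while Lama5 and Itga3 are only weakly related. The strongest negative value, -0.82, joins Lama5 and Itgb1.

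Genes whose products assemble in 1 complex were compared as 20 partner pairs, of which 19 could be tested (Col17a1, a hemidesmosomal collagen, was below the filter on low counts). A pair of 2 members had to pass in both directions, whereas a pair with 1 member was tested only in the fit on that member. Of the 19, 2 were called, both of the latter kind, where 4.59% of all genes were called with Itgb4 and 7.91% with Lama5, the members of these pairs. A positive slope was found in 14, and in 10 without the 2 farthest tumors and 17 on log2(RPKM + 1). The share of positive slopes over all genes was not taken. The called pairs were Itgb4 with Plec (plectin, its cytoplasmic linker), where Plec rose by 0.17 per SD of Itgb4 (SE 0.0372, adjusted p = 0.0149), and Lama5 with Bcam, a laminin α5 receptor, where Bcam fell by 0.14 per SD of Lama5 (SE 0.0366, adjusted p = 0.0239). For Itgb4 and Plec, r was 0.698 (permutation p = 0.00134) but rho 0.379 (permutation p = 0.0997), and r was 0.519 without Lo_8, 0.914 in Lo and 0.407 in Hi. Without the 2 farthest tumors r was 0.428. For Lama5 and Bcam, r was -0.648 (permutation p = 0.00136) and rho -0.576 (permutation p = 0.00862), with r = -0.536 without Lo_8, -0.883 in Lo and -0.359 in Hi. Without Lo_8 neither pair was called, whereas with the GC slope as a term Lama5 and Bcam were still called and their partial correlation was -0.884. Lama5 and Bcam were not called on log2(RPKM + 1), where the slope was -0.06 (adjusted p = 0.309), nor with 4 marker scores as terms (adjusted p = 0.0740), and Itgb4 and Plec were not called with the GC slope (adjusted p = 0.226).

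The subunits of the receptors and trimers themselves were not called with each other. Itga6 and Itgb4 had r = -0.257 (permutation p = 0.275), Itga6 and Itgb1 0.137 (permutation p = 0.563), and Itga3 and Itgb1 0.006 (permutation p = 0.981). Itga2 and Itgb1 had r = 0.561 with an adjusted p of 0.225. Lama3 and Lamb3 had r = 0.21 (permutation p = 0.375). For laminins α5β1γ1 and α5β2γ1, Lama5 and Lamc1 had r = -0.073 (permutation p = 0.754), while Lama5 and Lamb2 had r = 0.493 with an adjusted p of 0.158, although they were called on log2(RPKM + 1) (adjusted p = 0.0136). Lamb1 had a slope of -0.13 per SD of Lama5 (adjusted p = 0.249), and one of -0.04 on log2(RPKM + 1) (adjusted p = 0.762).

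Over 31 other genes of the pathway, of which 30 were tested with each of the 9 members, 10 relations were called. Of these, 5 were with Itgb4, 2 with Lama5 and 1 each with Lamb3, Itga2 and Itgb1, to be read against the 4.59%, 7.91%, 2.09%, 0.0953% and 6.6% of all genes called with these members. For Lama5, Itgb1 and Lamb3 the share of the 30 genes was thus near or below that of all genes. Per SD of Itgb4, Plec rose by 0.17, Pxn (paxillin, a focal adhesion adaptor) rose by 0.08 (adjusted p = 0.0496) and Lamb2 by 0.10 (adjusted p = 0.0451), while Ntn4 (netrin 4, a laminin-related basement membrane protein) fell by 0.38 (adjusted p = 0.00414) and Fermt1 (kindlin 1, an integrin activator) fell by 0.37 (adjusted p = 0.0124). Ntn4 was the most closely related of these, with r = -0.802 (permutation p = 5e-05), rho = -0.701 (permutation p = 0.00076), r = -0.892 in Lo, -0.681 in Hi and -0.653 without Lo_8.

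Plec was called with 4 members: it rose with Lama5 by 0.17 per SD (adjusted p = 0.00819) and with Itgb4 as above, and it fell with Itga2 by 0.18 (adjusted p = 0.0327) and with Itgb1 by 0.15 (adjusted p = 0.0329). Its transcript is GC rich (61.3%), and with the GC slope as a term none of these 4 relations was called, nor those of Pxn and Lamb2 with Itgb4. The remaining called relation was of Lamb3 with Tln1 (talin 1, which links integrins to actin), which rose by 0.16 per SD of Lamb3 (adjusted p = 0.0388, r = 0.675, permutation p = 0.0011, rho = 0.683, and r = 0.733 without the 2 farthest tumors). Lama3, Lamc1, Itga3 and Itga6 had no called relation with any of the 30 genes. Without Lo_8, none of the 10 relations was called.

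Gene dosage was compared next, since tumors of this cross gain and lose chromosomes. A chromosome's dosage in a tumor was taken from its RNA, as the median log2 CPM of its genes relative to the median tumor and to all autosomes, with the members left out. Lama5 was the 1 of 9 members called with the dosage of its own chromosome, against 11.2% of all autosomal genes called as higher (0.669% as lower) and 24.1% of those on Chr2. Lama5 rose by 0.30 per SD of Chr2 dosage (SE 0.0629, adjusted p = 0.00333), or by 3.48 in log2 per unit of log2 dosage. Without Lo_8 the change was 0.14 per SD, and without the 2 farthest tumors it was 0.11 per SD. Each SD here is that of the dosage over the tumors kept. Chr2 dosage was highest in Lo_2 (0.23), Lo_8 (0.20), Lo_11 (0.17) and Lo_1 (0.12), and the other tumors lay between -0.05 and 0.04. The 3 highest Lama5 levels were in Lo_8, Lo_1 and Lo_2, whereas Lo_11 had 289.1 CPM, close to the median. Over 20 tumors r was 0.677 (permutation p = 0.00121) and rho 0.574 (permutation p = 0.00897), and within labels r was 0.652 in Lo and 0.513 in Hi. Without Lo_8 r was 0.536 and the adjusted p 0.0969, and without Lo_2 and Lo_8, the 2 farthest, r was 0.447 and the adjusted p 0.261. With the GC slope as a term the adjusted p was 0.0128.

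**Figure D4:**
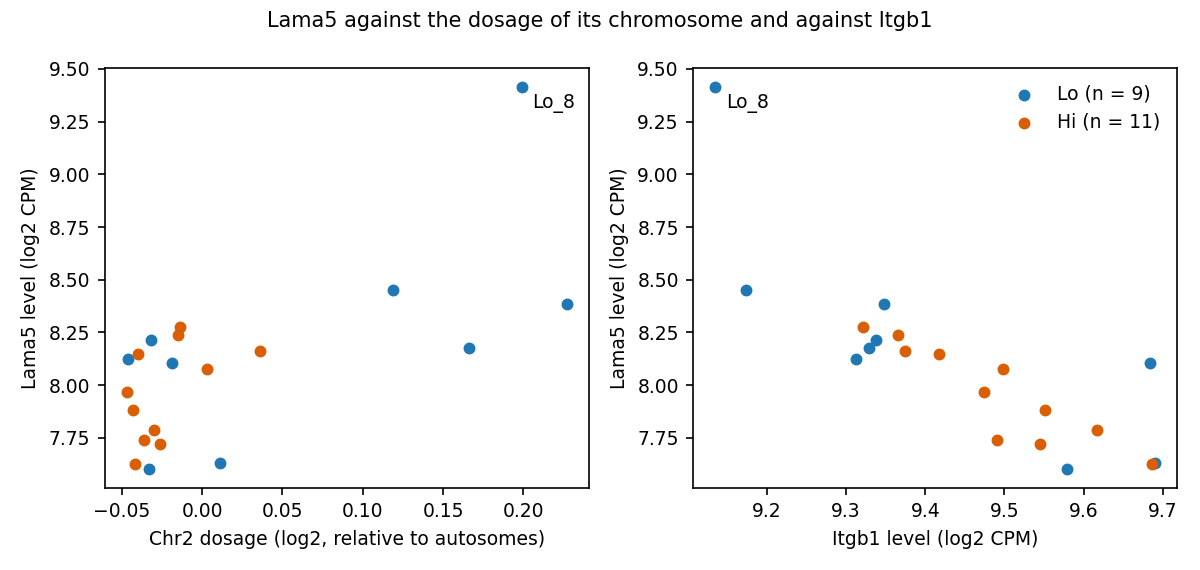
Lama5 level (log2 CPM) in 9 Lo (blue) and 11 Hi (orange) tumors against the dosage of Chr2 (log2, left) and against the Itgb1 level (log2 CPM, right). On the left 4 Lo tumors lie at Chr2 dosages of 0.12 to 0.23; on the right Lama5 falls as Itgb1 rises, with Lo_8 at the upper left end in the Itgb1 plot.

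Itga6, the other member on Chr2, was not called (r = 0.441, permutation p = 0.0525, adjusted p = 0.238), although its rho was 0.561 and the log2 change per unit of log2 dosage was 0.70. On Chr1, dosage was lowest in Lo_8 (-0.30), Hi_7 (-0.23) and Hi_5 (-0.135). Lamc1 in these tumors was at 116.7, 120.6 and 114.6 CPM, all under its median of 137.1 CPM, and it changed by 0.91 per unit of log2 dosage without being called (adjusted p = 0.197). Lamb3, also on Chr1, was at 13.8, 15.3 and 38.7 CPM in the same tumors, on both sides of its median of 22.8 CPM (adjusted p = 0.583).

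The cell types that a tumor piece can hold were compared with the members through 11 marker lists, 99 relations in all, each list scored as the mean z-score of its genes. In bulk RNA, fewer cells of a type and less RNA per cell cannot be told apart. Of these, 2 were called, both with the list of 7 leukocyte genes, with which 3.71% of all genes were called. The share of all genes called was 0.286% with the epithelial list, 0.318% with the basal epithelial list, 0.307% with smooth muscle and pericytes, 1.86% with fibroblasts, 0.991% with endothelial cells, 0.0106% with platelets, 0.0583% with adipocytes, 0.699% with skeletal muscle, 0% with Schwann cells and 1.21% with cycling genes. Lamb3 rose by 0.54 per SD of the score (SE 0.125, adjusted p = 0.0243), and Itgb4 fell by 0.17 (SE 0.0439, adjusted p = 0.0360). The 7 genes were present in every tumor and summed to between 290.5 and 678.9 CPM, of which Lcp1 alone had 209.0 to 568.1 CPM and the defining marker Ptprc (CD45) 13.8 to 26.0 CPM. The part of these cells in the levels of Lamb3 and Itgb4 was not tested.

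For Lamb3, r with the leukocyte score was 0.687 (permutation p = 0.00098) and rho 0.696 (permutation p = 0.00105), with 0.651 in Lo, 0.763 in Hi and 0.673 without Lo_8. Without Lo_3 and Lo_4, the tumors with the lowest and highest score, r was 0.644 and the adjusted p 0.107. Hi_8, the tumor with most Lamb3, had a score of 0.58, and Lo_2, with least, one of -0.13, so that neither stood at an end of the scores. For Itgb4, r was -0.646 (permutation p = 0.00147) and rho -0.645 (permutation p = 0.00255), with an adjusted p of 0.104 without Lo_8. On log2(RPKM + 1) the slope of Itgb4 was -0.06 and not called (adjusted p = 0.644), whereas Lamb3 was called (adjusted p = 0.0127). Lamb3 also ran with the epithelial list (r = 0.471, rho = 0.662) and the basal epithelial list (r = 0.377, rho = 0.523). It ran against the cycling list (r = -0.533, rho = -0.447). Itgb4 also ran against the fibroblast list (r = -0.610), Lamc1 ran with the smooth muscle and pericyte list (r = 0.621) and Itga6 against the adipocyte list (r = -0.606). None of these relations of Lamb3, Itgb4, Lamc1 and Itga6 was called.

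**Figure D5:**
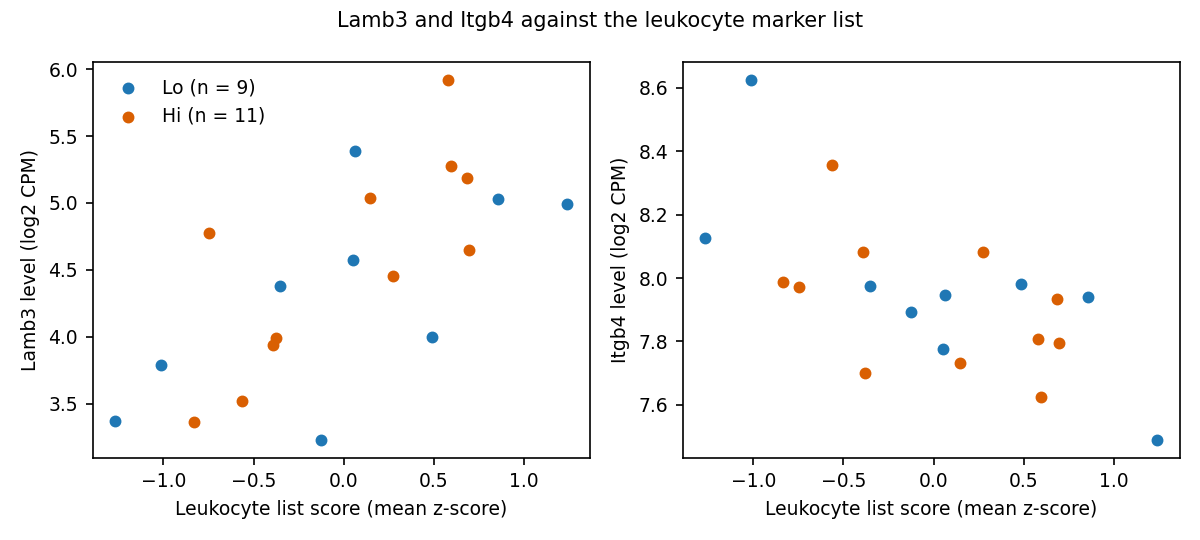
Lamb3 (left) and Itgb4 (right) levels in log2 CPM against the score of 7 leukocyte genes (mean z-score) in 9 Lo (blue) and 11 Hi (orange) tumors. Lamb3 is higher and Itgb4 lower where the score is high, with r = 0.687 and -0.646.

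The genes most like each member across the 20 tumors were sought among the 10737 genes whose log2 CPM averaged 3 or more, by Pearson's r, as a description without a test. Lama5 was closest to Zfp335 (r = 0.931) and Gyltl1b (r = 0.921), both on Chr2, and Itga6 to Fam210b (r = 0.872) and Zdhhc5 (r = 0.853), also on Chr2. Among the 20 genes most like Lama5, 15 were on Chr2, and among those most like Itga6, 12 were, where 7.96% of all genes compared are on that chromosome. Lamb3 was closest to Vdr, the vitamin D receptor (r = 0.935), and Ogfrl1 (r = 0.932). Itgb1 was closest to Asah1, acid ceramidase (r = 0.915), which shares Chr8 with it, and Pnpla8 (r = 0.902).

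Itgb4 was closest to B230344G16Rik (r = 0.906) and Bag6 (r = 0.859). B230344G16Rik lies on the opposite strand and shares 537 exon bases with Itgb4, and its counts were 9.83% to 12.8% of those of Itgb4. As the strand setting of the counting is not stated, reads of these genes cannot be told apart there. Lamc1 was closest to Col15a1, a basement membrane zone collagen (r = 0.762), and Adamts3 (r = 0.747), and Itga3 to Cxxc5 (r = 0.840) and Cst6 (r = 0.783). Itga2 was closest to Zfp229 (r = 0.831) and Cog5 (r = 0.829), and Lama3 to Tmem245 (r = 0.740) and Zfp280b (r = 0.692).

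In mm10 the members lie at Chr1 153218922 to 153332786 (Lamc1), Chr1 193207699 to 193343878 (Lamb3), Chr2 71745616 to 71858416 (Itga6), Chr2 180176373 to 180225859 (Lama5), Chr8 128685654 to 128733200 (Itgb1), Chr11 95044474 to 95076801 (Itga3), Chr11 115974709 to 116008412 (Itgb4), Chr13 114835916 to 114932041 (Itga2) and Chr18 12333819 to 12583013 (Lama3). Counts were of reads over whole genes, so that exons, isoforms and parental alleles are not separated. The listed length of Itga2, 4214 bases, was shorter than the 7133 bases of its exons in GENCODE M21, and its RPKM and GC content are therefore uncertain. For the other 8 members the lengths were the same.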

How the data were processed

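RNA was isolated with miRNeasy and libraries were made with a TruSeq mRNA kit. The authors trimmed paired-end reads to 100 bases, aligned them to mm10 with TopHat2 2.0.12 within MapRseq and deposited raw counts of reads per gene (featureCounts 1.4.4 by the processing notes), 1 column per tumor. Annotation release and strand setting are not given in the sources used here. The members, partner pairs and gene lists were chosen with earlier results of these data known. Genes of low count were removed (filterByExpr, minimum count 10), TMM factors were computed, and log2 CPM used a prior count of 2. edgeR 4.0.16 quasi-likelihood fits with Benjamini-Hochberg adjustment over all tested genes at 0.05 gave all calls, in R 4.3.3. limma 3.58.1 and DESeq2 1.42.0 were alternatives. Correlations used log2 CPM with 100000 two-sided permutations. RPKM used the deposited listed length and total counts. Tumors were taken as separate samples, without technical replicates. Named genes were the members, pathway genes called or listed as partners, and the 2 nearest genes per member. Scripts were tested on simulated data. A GC slope term and fits without Lo_8 were added after the data were seen. 1 gene of the wider pathway is not reported here by name.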

Additional observations from a re-analysis of the deposited data

Results flagged for a closer look

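Within the 9 Lo tumors, the gap between the Lama5 level of Lo_8 (682.8 CPM) and that of the nearest tumor, Lo_1 (350.1 CPM), was 0.532 of the whole range on the log2 scale, which marked Lo_8 as far from the others by Dixon's criterion. Of 9 members tested in the Lo tumors, 1 was marked, and chance marks about 1 in 20 groups. The 11 Hi tumors were not tested, as the limits used here were set for smaller groups. Lo_8 also had a Chr2 dosage of 0.20 and the highest GC slope of all libraries, 0.19, and the part of either in this value was not tested.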

How the results depend on the processing

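In all comparisons, 43346 genes were counted but 18883 tested, members with few reads (Lama3 and Itga2) carry counting error, and 20 tumors limit relations that hang on 1 tumor. The count of 2 called member pairs was 1 with the 4 marker scores as terms, 0 without the 2 farthest tumors, 0 with the GC slope as a term and 1 without Lo_8. The 2 called partner pairs became 0 with the marker scores, 0 without the 2 farthest tumors, 1 with the GC slope and 0 without Lo_8, and were 3 on log2(RPKM + 1). The 10 pathway relations became 6 without the filter on low counts, 1 with the marker scores, 2 without the 2 farthest tumors, 17 on log2(RPKM + 1), 5 with the GC slope and 0 without Lo_8. Of the same relations in the same direction these held 6, 0, 1, 5, 4 and 0. Calls over all genes shifted too. On log2(RPKM + 1), 2740 genes rose and 52 fell with Lama5, 2629 and 33 with Itgb4, 1431 and 20 with Itga3, and 41 and 3 with Itgb1. The main fits had 833 and 660, 389 and 477, 18 and 17, and 626 and 621. Without Lo_8, 389 rose and 161 fell with Lama5, 29 and 98 with Itgb4, and 144 and 133 with Itgb1. The 2 marker relations became 1 without the filter, 0 without the 2 farthest tumors and 1 without Lo_8. The 2 on log2(RPKM + 1) were Lamb3 on leukocytes and Lama5 on the Schwann list (adjusted p = 0.0295). With the Schwann list, 990 of all genes rose and 11 fell in that setting, against 0 and 0 in the main fit. The 1 member called on dosage became 0 without the 2 farthest tumors and 0 without Lo_8. The cause was not tested. Under DESeq2 size factors, limma, totals without the ribosomal RNA locus and Lo or Hi as a term these counts stayed within 1.5 times. Between Lo and Hi, uncalled differences near 0 changed sign: Lamc1 to 0.0029 with limma, 0.00016 with the GC slope and 0.0234 without Lo_8, Itga2 to 1.01e-05 with the GC slope and 0.0383 without Lo_8, and Itgb4 to -0.0293 without Lo_8. No member was called in any of these fits. Lo and Hi tumors share 9 numbers, and same-numbered tumors deviated together with r from -0.418 to 0.208, over 0.1 in 3 of 9. They were not taken as pairs. As r was not computed for differently numbered tumors, these values cannot decide whether the numbers mark a pairing. With the number as a replicate block 0 members were called, and 872 genes had an unadjusted p under 0.05. RPKM levels with totals without the ribosomal RNA locus were higher, at 204.5 for Itgb1 against 171.8. Of 184 recomputed values for named genes and pairs, 155 kept their sign and call, or were untested and moved little. For levels this meant under 1 SD, and for spreads under the approximate standard error of an SD over 20 tumors. The other 29 did not: 14 lost a call, 3 gained one, 6 untested values moved by more and 6 changed sign.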
